A study of Mus musculus with 2 samples.

Results

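Erythroid cells, the precursors and immature forms of red blood cells, made up 136 of the 38883 cells deposited from colon tumors of mice. They were the cells that the deposited annotation named Erythro, with no further selection, and they were described across genes against the other 10 annotated cell types. The tumors were colitis-associated: female mice on a C57Bl/6 background, 6 to 10 weeks old at the start, received azoxymethane (AOM), a colon carcinogen, at 10 mg/kg and then dextran sodium sulfate (DSS), which inflames the colon, at 2.5% in the first cycles and 2% in the third, and were killed on day 110. Mice of the group labelled Mir34a_F/F carried floxed alleles of Mir34a, the gene of the p53-inducible microRNA miR-34a. Mice of the group labelled Mir34a_Mye_KO carried the same floxed alleles together with LysM-Cre, a recombinase driven by the lysozyme promoter of myeloid cells, and no source used here states that it acts in erythroid cells. In each group 6 to 8 tumors of 3 mice were pooled into 1 library, here called the F/F and the Mye_KO library, so that each group is 1 sample and no test between genotypes was possible. Red blood cells were lysed and dead cells were removed before cells were loaded. The F/F library held 106 erythroid cells and the Mye_KO library 30.

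Erythroid cells make hemoglobin, the oxygen carrier of blood, from alpha and beta globin chains and heme. As they mature they fill with globin transcripts, take up iron, build a membrane skeleton, and then expel the nucleus and clear mitochondria and ribosomes. A reticulocyte, the last form that still holds RNA, therefore carries a few highly abundant transcripts and little else.

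Erythroid cells were the shallowest cells of either library. They held 247653 unique molecular identifiers (UMIs, which count captured mRNA molecules) in the F/F library and 135752 in the Mye_KO library, with medians of 1786.5 and 2312 UMIs and 588 and 888.5 genes per cell. All of the other 10 types had a higher median, the lowest being 2951.5 UMIs in mast cells of the F/F library and 4407 in endothelial cells of the Mye_KO library. A median of 2.03% and 5.86% of their UMIs came from the mitochondrial genome, and 4 and 5 cells lay at 25% or more, the limit the study states. A gene without any UMI in erythroid cells could still reach 0.121 and 0.221 per 10000 of their summed UMIs, the limit that a count of 0 allows. Levels below are given per 10000 UMIs: each cell's UMIs of a gene were divided by the cell's total, and the quotients were averaged over cells. On that scale, where shallow cells weigh as much as deep ones, the interval of a gene at 0 reached up to 0.578 and 1.13. Their 95% intervals, and those of shares, cover counting error only and not differences between mice. The intervals of levels, of ratios between libraries and of shares of globin UMIs also leave out the spread between cells. The libraries shared 96 cell barcodes, among them 1 erythroid barcode of each library, and no barcode was erythroid in both. The table's mir34apri feature had 0 UMIs in erythroid cells of either library and a level of 0.0723 and 0.111 in macrophages. Whether it covers the deleted part is not given in the sources used here, so that it checks neither genotype label. In erythroid cells Lyz2, whose promoter drives LysM-Cre, had 2 and 0 UMIs.

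Erythroid cells took a larger share of the F/F library than of the Mye_KO library. They were 106 of 20312 cells, or 0.522% (exact binomial interval 0.427 to 0.631%), against 30 of 18571, or 0.162% (0.109 to 0.231%). The share was 3.23 times as high in the F/F library, a difference of -0.360 percentage points for Mye_KO minus F/F (-0.481 to -0.243). Without epithelial cells in the denominator the shares were 1.22% and 0.345%. Counting only erythroid cells with at least 10% of UMIs from hemoglobin they were 0.438% and 0.102%, a ratio of 4.28. Red blood cells were lysed before capture, and how far the lysis reached the cells annotated as erythroid is not given. Pools of 3 mice give no spread between animals, so that genotype, lysis and mouse cannot be told apart.

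Hemoglobin gave on average 34.3% of the UMIs of an erythroid cell in F/F and 21.3% in Mye_KO, with a wide range between cells. The share of a cell's UMIs from the 4 adult globin genes ranged from 0.733 to 84.3% in the F/F library, with a median of 34.3% and quartiles of 13.6 and 53.0%. In Mye_KO it ranged from 0.394 to 75.4%, with a median of 17.98% and quartiles of 4.23 and 38.3%. The ranges overlapped almost completely, but cells at 50% or more numbered 31 in F/F and 1 in Mye_KO. At 10% or more stood 89 of 106 and 19 of 30 cells; 10 and 0 cells lay near that mark, between 8 and 12%. Below 1% stood 2 and 3 cells.

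**Figure D1:**
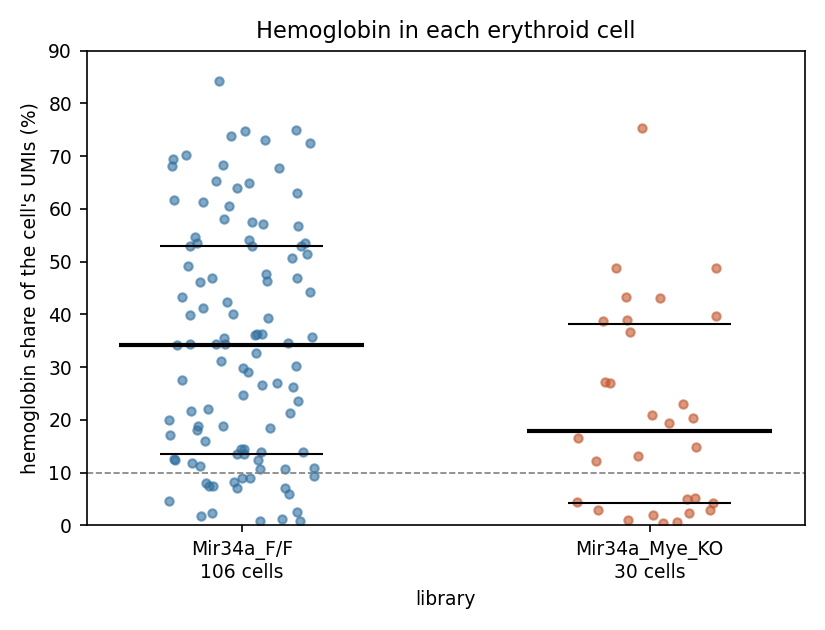
Each point is 1 erythroid cell and the vertical axis gives the percent of its UMIs that came from the adult globin genes, by library; thick lines are medians (34.3 and 17.98%), thin lines are quartiles and the dashed line marks 10%. The cells spread from under 1% to 84.3 and 75.4%.

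The 3 markers given for these cells, Hba-a1, Hbb-bs and Alas2, were highest in them, which describes the annotation and does not test it. Hba-a1 and Hba-a2 encode alpha globin and Hbb-bs and Hbb-bt encode adult beta globin. Hbb-bs was the leading gene, at 1861 UMIs per 10000 (1841 to 1881) in F/F and 1056 (1036 to 1076) in Mye_KO. Hba-a1 stood at 748 and 482, Hba-a2 at 548 and 401, and Hbb-bt at 278 and 192. The order of the levels was thus Hbb-bs, Hba-a1, Hba-a2, Hbb-bt in either library, and the counting intervals of neighbours did not overlap. Hbb-bs had a UMI in every erythroid cell, against 7.12 and 2.68% of T cells, whose median depth of 3548 and 8043 UMIs was greater. The embryonic globin genes Hba-x, Hbb-y, Hbb-bh1 and Hbb-bh2 had 0 UMIs, which for both libraries together allows up to 0.0782 per 10000 summed UMIs.

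In every other type the summed globin level was between 0.225 and 4.42 UMIs per 10000 in F/F and between 0.0305 and 0.943 in Mye_KO, against 3434 and 2130 in erythroid cells. Single cells set part of those levels: in endothelial cells of F/F 720 of 757 globin UMIs lay in 1 cell, and in mast cells of Mye_KO 2081 of 2114. With cells of other types at 1% hemoglobin or more left out, an alternative chosen after seeing the data, the highest other type reached 0.487 and 0.235. The erythroid level was then 7046 and 9076 times as high.

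**Figure D2:**
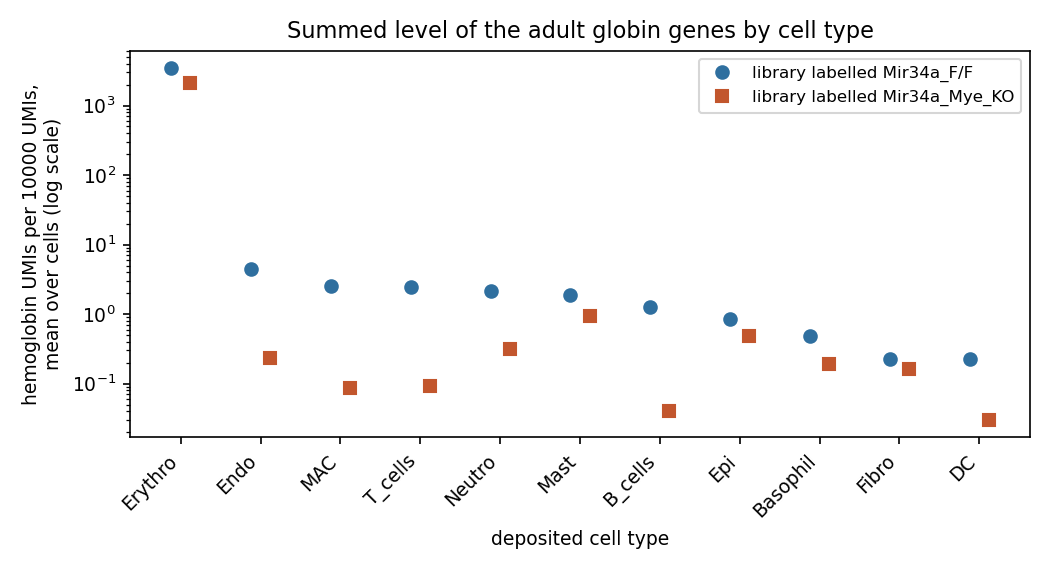
Mean hemoglobin UMIs per 10000 UMIs (log scale) in each annotated cell type, circles for the F/F and squares for the Mye_KO library, each point being 1 library. Erythroid cells stand at 3434 and 2130 and the other 10 types at 4.42 or less.

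Over summed UMIs the makeup of the hemoglobin message was close between the libraries. The 3 cells with the most globin UMIs held 11261 of 89014 in F/F and 14032 of 35620 in Mye_KO. Hbb-bs gave 52.9% (exact binomial interval 52.6 to 53.3%) of globin UMIs in F/F and 51.0% (50.5 to 51.5%) in Mye_KO. Hba-a1 gave 21.9 and 21.7%, Hba-a2 16.1 and 16.9%, and Hbb-bt 9.03 and 10.4%. The ratio of beta to alpha UMIs was 1.63 and 1.59 over the summed cells. From cell to cell the ratio varied more, with a median of 1.62 (quartiles 1.43 and 1.84) in F/F and 1.37 (0.868 and 1.74) in Mye_KO. Hbb-bs exceeded Hbb-bt in all 106 and all 30 cells. Alpha exceeded beta in 7 of 106 cells of F/F and in 10 of 30 of Mye_KO, a larger part of the latter. Among cells with at least 100 globin UMIs, 90 and 21 in number, Hbb-bt ranged from 0 to 20.5% and from 0 to 16.0% of globin UMIs.

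The alpha genes lie on chromosome 11, with the theta globin gene Hbq1b between them (Hba-a1 at chr11:32283511-32284465, Hba-a2 at chr11:32296489-32297298, GRCm38, plus strand) and the beta genes on chromosome 7 (Hbb-bs at chr7:103826534-103828096, Hbb-bt at chr7:103812524-103813996, minus strand). In the GENCODE M21 models the mRNAs of Hba-a1 and Hba-a2 matched at 537 of 538 aligned bases, and those of Hbb-bs and Hbb-bt at 580 of 626. A further 177 and 79 bases lay in gaps, as the models differ in length (699 and 554 bases for the alpha pair). How reads that match both alpha genes were shared out is not given in the sources used here, so the split between Hba-a1 and Hba-a2 is uncertain, and their sum and the ratio of beta to alpha would be too if such reads were not counted. The RefSeq promoters of the adult globin genes and of Alas2, a marker given for these cells, are shown. Each is the 120 bases before the RefSeq start site, 5′ to 3′ on the gene's strand, although some GENCODE models begin further upstream. Capitals mark, on either strand, the letters of a CACCC box, a CCAAT box, a TATAA box or the GATA factor motif AGATAA.
Hba-a1 (chr11:32283552-32283671): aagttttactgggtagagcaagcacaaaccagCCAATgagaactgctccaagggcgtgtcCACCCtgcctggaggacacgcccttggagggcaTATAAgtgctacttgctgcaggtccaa
Hba-a2 (chr11:32296372-32296491): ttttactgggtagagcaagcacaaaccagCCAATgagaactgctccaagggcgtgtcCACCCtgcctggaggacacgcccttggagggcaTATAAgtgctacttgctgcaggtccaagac
Hbb-bs (chr7:103827929-103828048): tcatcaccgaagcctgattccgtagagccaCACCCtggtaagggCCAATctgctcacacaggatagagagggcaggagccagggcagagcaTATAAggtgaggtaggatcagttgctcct
Hbb-bt (chr7:103813924-103814043): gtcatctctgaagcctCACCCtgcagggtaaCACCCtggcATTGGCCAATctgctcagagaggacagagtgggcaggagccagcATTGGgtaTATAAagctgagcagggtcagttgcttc
Alas2 (chrX:150547297-150547416): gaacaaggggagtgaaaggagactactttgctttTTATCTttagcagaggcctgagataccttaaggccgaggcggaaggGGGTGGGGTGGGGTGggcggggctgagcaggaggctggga

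The 4 globin promoters each held all but the last of these motifs. Over the same window the CACCC box was found in 31.7% of the 32851 RefSeq promoters, the CCAAT box in 21.3%, the TATAA box in 11.8% and the AGATAA motif in 4.36%. The Alas2 window held CACCC 3 times and AGATAA once, all on the opposite strand, from 86 to 26 bases before the start. In Hbb-bt a CCAAT and its reverse adjoin. The Hba-a1 and Hba-a2 windows, offset by 3 bases between annotated starts, matched at all 117 aligned bases, and those of Hbb-bs and Hbb-bt at 91 of 118.

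Beyond globin, the genes that set erythroid cells apart were few, and genes of heme synthesis, iron import, the membrane and ubiquitin conjugation were among them beside genes of other functions. A gene was called highest in erythroid cells where its mean was at least 2-fold above that of the highest other type in each library, with at least 3 erythroid UMIs in each. Of 22406 genes with a UMI in at least 20 cells, 18 met this rule (0.0803%), so that a list of about 10 genes with 0 called is no different from the genes at large. The annotation was itself made from these cells' expression, so that the folds describe the cells and test nothing. After the globins the largest folds were those of Apol11b, a gene of the apolipoprotein L family, Slc4a1 (band 3, the anion exchanger of the red cell membrane) and Alas2 (the first enzyme of erythroid heme synthesis).

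Alas2 stood at 9.06 UMIs per 10000 (7.73 to 10.7) in F/F and 8.30 (6.36 to 10.9) in Mye_KO, against 0.154 and 0.0927 in mast cells, the next type. It had a UMI in 66 of 106 and 22 of 30 erythroid cells (62.3 and 73.3%), against 0.551 and 0.642% of T cells. With every cell thinned to 500 UMIs the shares were 33.0 and 43.3%, against 0 and 0.0755% of T cells. Slc4a1 was lower, at 1.002 and 1.47 from 25 and 17 UMIs, but close to absent elsewhere, with 0.00781 and 0.00086 in mast cells. Apol11b stood at 0.874 and 0.672. Its 13 Mye_KO UMIs came from 2 cells, whereas the 21 of F/F came from 13 cells.

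**Figure D3:**
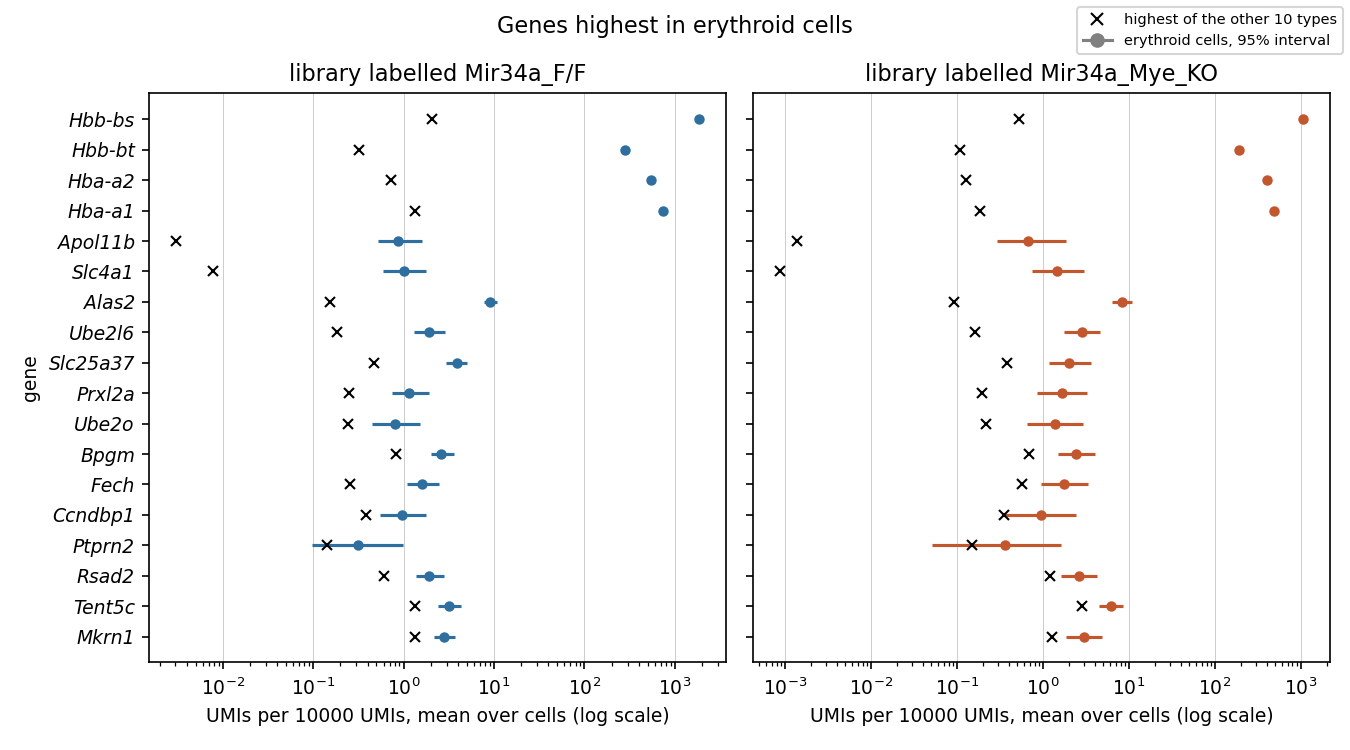
Mean UMIs per 10000 UMIs (log scale) of the 18 genes highest in erythroid cells, points with 95% counting intervals, against the mean of the highest of the other 10 types (crosses), for the F/F library on the left and the Mye_KO library on the right. The globins lie more than 2 orders of magnitude above the crosses and Mkrn1 about 2-fold above.

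The other called genes had folds of 2.09 to 17.5. Ube2l6, an E2 enzyme that conjugates ISG15 and ubiquitin, stood at 1.91 and 2.83, against 0.185 and 0.162 in dendritic cells. Slc25a37 (mitoferrin-1, which brings iron into the mitochondria) stood at 3.86 and 2.03. Prxl2a, a peroxiredoxin-like protein, stood at 1.16 and 1.65, and Ccndbp1, a cyclin D-binding protein, at 0.969 and 0.960. Bpgm, which makes the 2,3-bisphosphoglycerate that lowers the oxygen affinity of hemoglobin, stood at 2.62 and 2.40. Ube2o, the ubiquitin ligase that clears ribosomes in reticulocytes, stood at 0.797 and 1.39. Ptprn2, Rsad2, Tent5c and Mkrn1 completed the list with folds of 2.09 to 3.17, and Ptprn2 rested on 6 and 3 UMIs.

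In heme synthesis the genes called were those of the first and last steps. Of 7 enzymes analysed here 2 (against 0.0803% of all genes) were called highest in erythroid cells, Alas2 and Fech, which inserts the iron into heme and stood at 1.61 and 1.77 from 41 and 23 UMIs. Alad, Uros, Urod, Cpox and Ppox, enzymes of the steps between them, had 1 to 10 UMIs in F/F and 1 to 4 in Mye_KO. The median log2 fold over the highest other type, taking the smaller of the 2 libraries, was -0.69 for the 7 enzymes, against -1.997 over the 8687 genes with a UMI in both. For iron supply 1 of 9 genes was called, Slc25a37. Tfrc, the transferrin receptor through which iron enters, stood at 0.715 and 0.805, against 0.940 and 0.721 in T cells, the highest other type, so that it was lower than there in F/F and slightly higher in Mye_KO, with counting intervals of 0.359 to 1.46 and 0.325 to 2.10 that include the T cell level. Glrx5, which acts in iron-sulfur cluster assembly, stood at 0.698 and 0.778, and Snx3, a sorting protein that recycles the transferrin receptor, at 0.767 and 0.715. Slc11a2, the iron transporter DMT1, stood at 0.420 and 0.0200.

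The membrane was represented mainly by Slc4a1, the 1 called gene of 9 skeleton genes analysed here. Epb41 (protein 4.1R) had the highest level among them, at 3.996 and 4.27, but T cells held 4.31 and 5.60. Sptb, the erythroid beta-spectrin, had 1 and 1 UMIs, Tspo2, an erythroid translocator protein, 4 and 2, and Dmtn (dematin) 0 and 1. Add2, the beta-adducin gene, had 0 UMIs. Of 11 surface antigens and channels 0 were called, again no different from the 0.0803% over all genes. Cd24a (3.37 and 2.78), Slc2a1, the glucose transporter (0.833 and 0.610), and Cd36 (0.497 and 0.174) were no higher than in neutrophils or macrophages. Kel and Xk, of the Kell antigen complex, had 3 and 0 and 2 and 1 UMIs. Gypc, Rhd, Aqp1 and Icam4 had 0 UMIs.

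The genes of late maturation were present in part. Against the 0.0803% called over all genes, 3 of 15 genes of organelle clearance and ubiquitin were called, Ube2l6, Ube2o and the ubiquitin ligase gene Mkrn1 (2.81 and 2.96). Bnip3l, the receptor that clears mitochondria from reticulocytes, stood at 2.75 and 4.05, against 1.43 and 1.35 in neutrophils, short of 2-fold in F/F. Ubb, which encodes polyubiquitin, stood at 6.83 and 5.54 and was higher in basophils, at 12.03 and 11.1. Pim1, a kinase gene, stood at 2.03 and 2.33 and was higher in basophils of F/F and neutrophils of Mye_KO. Of 12 late messages 2 were called, Tent5c, a poly(A) polymerase (3.20 and 6.16), and Rsad2, an interferon-inducible gene (1.92 and 2.60, from 51 and 37 UMIs). Btg2, an anti-proliferative gene, stood at 1.97 and 2.56 and was higher in neutrophils. Bcl2l1, which encodes the survival protein Bcl-xL, stood at 0.564 and 1.32, and Tsc22d3, a glucocorticoid-induced gene, at 0.554 and 0.401, both below another type. Cldn13 and Ypel4 had 0 UMIs. In red cell metabolism 1 of 10 genes was called, Bpgm. Car2, the carbonic anhydrase of red cells, stood at 1.32 and 1.35, against 0.862 and 0.908 in epithelial cells, which was under 2-fold. Adipor1 stood at 1.77 and 1.10, Mgst3 at 1.32 and 1.30, and Car1 at 1.17 and 0.0854.

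Of 8 genes in the table that protect globin or the red cell from oxidation 0 were called, as the 0.0803% over all genes would give. Gpx1 (glutathione peroxidase) stood at 5.05 and 4.52, below the 7.44 and 6.94 of dendritic cells. Prdx2, the peroxiredoxin of red cells, stood at 1.90 and 1.44, against 1.99 in epithelial cells of F/F and 1.49 in fibroblasts of Mye_KO. Sod1 (1.54 and 0.640), Blvrb, the biliverdin reductase B (0.794 and 0.869), and Cat, catalase (0.708 and 1.33), were lower, and Cat exceeded the highest other type, at 0.485 and 0.350, from 18 and 12 UMIs. Selenbp1, a selenium-binding protein gene, had 0 UMIs. Ahsp, the alpha globin chaperone, was not analysed here.

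Regulators of early erythroid cells had few UMIs or none, which did not set them apart from other genes. No UMI was found for 4 of 12 erythroid factors and 2 of 10 progenitor genes, against 19023 of 32286 genes in all. Gata1, Klf1, Nfe2 and Gfi1b, transcription factors of red cell development, had 0 UMIs in either library and were not detectable at this depth, and 0 of 12 erythroid factors were called (0.0803% over all genes). Lmo2 had 7 and 4 UMIs, Ldb1 5 and 2, Myb 5 and 2, Bcl11a 5 and 1, and Gata2 3 and 1. Epor, the erythropoietin receptor, and Cnrip1 had 0 UMIs among 10 progenitor genes, and Kit, the stem cell factor receptor, had 12 and 2, at 0.332 and 0.477 against 8.12 and 7.87 in mast cells. Ccnd3, the cyclin D3 gene, had 8 and 6 UMIs, the transcription factor gene Sox6 9 and 0, and Myc 2 and 6. Of 12 proliferation genes 0 were called, against 0.0803% over all genes. Tubb5 (2.33 and 1.92), Top2a (1.10 and 0.889), Ube2c (0.853 and 0.834), Stmn1 (0.686 and 0.699) and Mki67 (0.621 and 0.496) lay near the level of the highest other type or below it. Of 11 immune genes that have been described in erythroid cells 0 were called, a count that says little beside the 0.0803% called over all genes. Lgals3, the highest of these, stood at 6.34 and 5.57, below the 11.2 and 8.63 of macrophages, and Ptprc (CD45) at 1.27 and 1.97, against 9.80 and 12.8 in T cells. Cybb, a subunit of the phagocyte NADPH oxidase, stood at 0.885 and 0.509, Tgfb1 at 0.475 and 0.532 and Cd274 (PD-L1) at 0.331 and 0.529, each below another type.

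The other erythroid messages were compared with hemoglobin cell by cell, as a description. The 10 called genes of the lists beyond globin (Alas2, Fech, Slc25a37, Slc4a1, Bpgm, Ube2l6, Ube2o, Mkrn1, Tent5c and Rsad2) summed to 28.8 and 31.9 UMIs per 10000 in erythroid cells and to at most 4.07 in another type, a gap that the choice of the genes fixes. At least 3 of them were seen in 51 of 106 and 18 of 30 cells, and none in 23 and 3. Per 10000 UMIs that were not hemoglobin, cells at 10% hemoglobin or more held 69.7 and 70.6 of their UMIs, and cells below 10% held 8.20 and 10.1. Alas2 was seen in 63 of 89 and 18 of 19 of the first, and in 3 of 17 and 4 of 11 of the second. Across cells the Spearman correlation between hemoglobin share and this sum was 0.65 (106 cells) and 0.82 (30 cells). The cells share a library, the genes were chosen for their mean in these same cells, most of them rich in hemoglobin, and the non-hemoglobin UMIs enter both measures, so that these values test no relation.

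**Figure D4:**
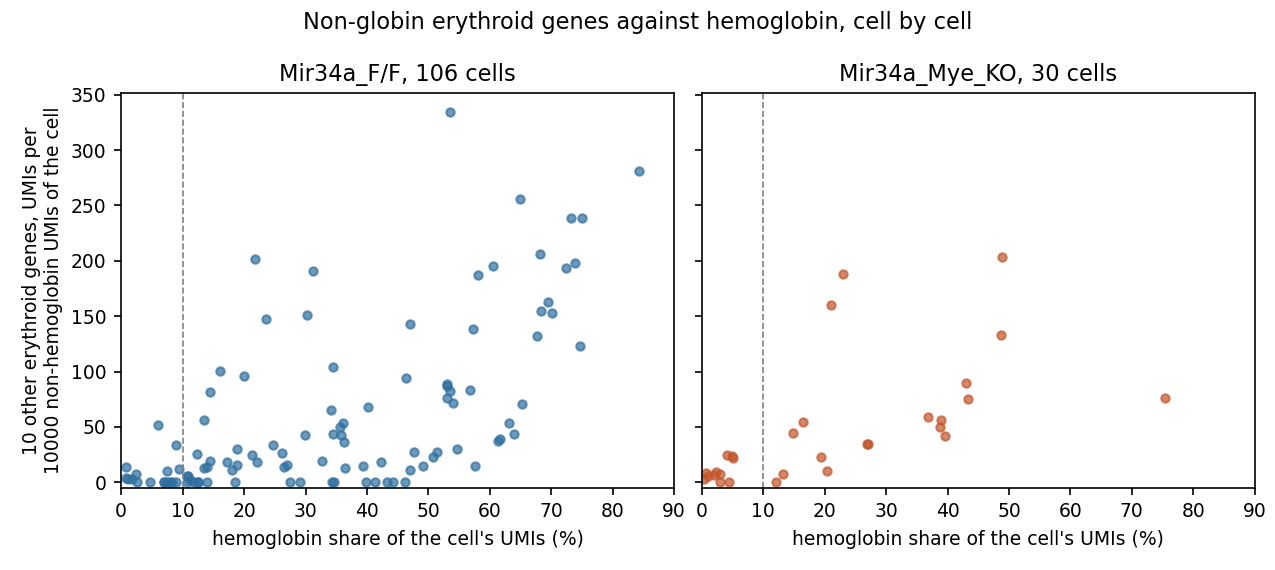
Each point is 1 erythroid cell, with the hemoglobin share of its UMIs (percent) on the horizontal axis and the summed UMIs of the 10 other erythroid genes per 10000 non-hemoglobin UMIs on the vertical axis; the dashed line marks 10%. Cells left of the line average 8.20 and 10.1, cells right of it 69.7 and 70.6.

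Depth differed between cells low and rich in hemoglobin in a way that depended on the UMIs counted. Cells under 10% had median depths of 1170 and 1502 UMIs, against 1835 and 2690 in those at 10% or more, totals that include the hemoglobin UMIs behind the split. Of UMIs that were not hemoglobin they held a median of 1083 and 1457, against 851 and 1810, so that they were deeper in F/F and shallower in Mye_KO. The number of genes followed the same order, with 755 and 797 against 587 and 931. The median mitochondrial share of cells under 10% was 2.80 and 6.39%, against 1.75 and 5.43%. The part of depth in the difference was not tested.

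Messages of other cell types were found in erythroid cells as well. At least 1 of the 7 epithelial markers, Krt8 and Epcam among them, had a UMI in every erythroid cell. The 7 markers summed to 61.9 and 52.1 UMIs per 10000, against 36.5 and 20.2 in T cells and 99.4 and 70.0 in epithelial cells. Per 10000 UMIs that were not hemoglobin the sum in erythroid cells was 93.6 and 63.4, against 36.5 and 20.2 in T cells. As whole numbers an erythroid cell held a median of 8 and 10.5 of these UMIs, and a T cell 10 and 12. The 6 B cell markers summed to 23.7 and 71.0, nearly all from Igkc and Jchain, against 16.5 and 34.5 in T cells. The 6 neutrophil markers summed to 12.3 and 11.8, against 1606 and 1064 in neutrophils, and the 6 mast cell markers to 11.5 and 15.4, against 585 and 630 in mast cells. The 7 platelet markers summed to 0.743 and 0.175, with 4 of them at 0. The 6 macrophage markers summed to 3.53 and 7.18, with 102 of the 134 Mye_KO UMIs in 1 cell, and the 6 dendritic cell markers to 1.36 and 4.64. Of the dendritic cell marker UMIs, 23 of 26 in F/F and 39 of 43 in Mye_KO came from H2-Ab1. That gene was higher in Mye_KO in 9 of the other 10 types too. Markers of T cells, basophils, endothelial cells and fibroblasts were each under 1 UMI per 10000. Ribosomal protein genes gave 7.81 and 6.84% of UMIs, or 11.9 and 8.52% of those that were not hemoglobin. They gave 15.7 and 11.8% in T cells and 9.78 and 7.09% in epithelial cells. Of UMIs that were not hemoglobin, the erythroid share thus lay between those types in either library. The part of these messages in the levels of genes that are not erythroid was not tested.

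Between the libraries the globins had a lower level in Mye_KO, whereas for most other erythroid genes the counting interval included no difference. On the log2 scale, Mye_KO over F/F, Hbb-bs differed by -0.82 (counting interval -0.85 to -0.79), Hba-a1 by -0.63, Hbb-bt by -0.53 and Hba-a2 by -0.45. Among cells at 10% hemoglobin or more, an alternative chosen after seeing the data, the differences were smaller, at -0.42, -0.26, -0.17 and -0.13. That cut is made on the globin share, the quantity compared, so that it changes these differences by construction. Alas2 differed by -0.13 (-0.58 to 0.33), an interval too wide to leave out a moderate difference in either direction. Tent5c was higher in Mye_KO by 0.94 (0.33 to 1.55), and its level in B cells, the next type, was also higher there, at 2.88 against 1.35. Slc25a37 differed by -0.92 (-1.81 to -0.01). Since hemoglobin takes a larger share in F/F, the denominator matters: per UMI that was not hemoglobin, Hbb-bs differed by -1.06, Hbb-bt by -0.94 and Alas2 by -0.61 (-1.04 to -0.19). In whole numbers an erythroid cell held a median of 515.5 hemoglobin UMIs in F/F and 462.5 in Mye_KO. Its other UMIs had medians of 872.5 and 1651.5, which lay further apart. The part of this in the lower globin level was not tested. These values compare 2 libraries of 106 and 30 cells, not the genotypes.

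**Figure D5:**
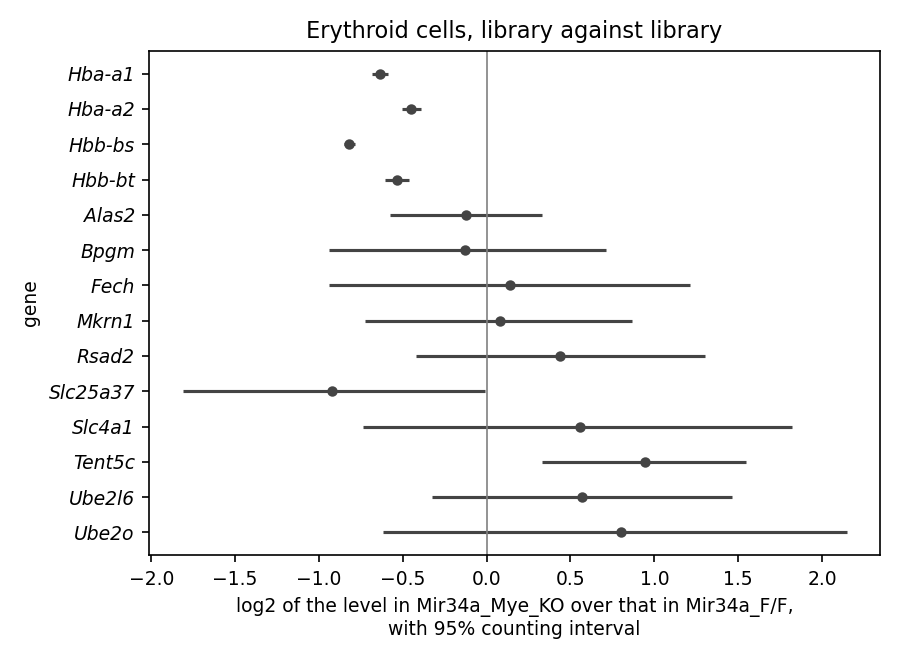
Log2 of the mean level in erythroid cells of the Mye_KO library over that of the F/F library for the adult globins and the 10 other erythroid genes, with 95% counting intervals and a line at 0 (no difference). The globins lie between -0.82 and -0.45, and the intervals of 8 of the 10 other genes include 0.

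Over all genes, 60 of 2021 with at least 20 erythroid UMIs were higher in Mye_KO by a log2 ratio of 1 or more with an interval off 0 (2.97%), and 18 were lower by as much (0.891%). Per UMI that was not hemoglobin the split was 29 higher and 76 lower, with a median log2 ratio over all genes of -0.31 in place of -0.03, and over summed UMIs it was 78 and 108. None of the 4 globins and none of the 10 other erythroid genes passed on the first scale. The higher genes were led by Iglc2, an immunoglobulin light chain constant gene (0.410 and 4.50 UMIs per 10000), Nhp2 (0.248 and 1.69), Itpkb (0.195 and 1.28), Cpsf6 (0.242 and 1.51) and Glg1 (0.295 and 1.45), each on 4 to 31 UMIs a library. Among the 13 genes of the mitochondrial genome 11 were higher, and so were all 4 immunoglobulin and J chain genes with enough UMIs. Iglc2, Igha, Jchain and the 11 mitochondrial genes were higher in Mye_KO in all of the other 10 types too, and Igkc in 9 of them. Pcna, the DNA polymerase clamp and the 1 progenitor-list gene with 20 UMIs, was higher by 1.75 (0.52 to 2.92), from 19 and 22 UMIs, and shared this direction with 2 of the other 10 types.

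Genes lower in Mye_KO were led by Slc25a39, a mitochondrial carrier that imports glutathione. It stood at 2.04 (1.41 to 3.00) in F/F, from 51 UMIs in 34 cells, and at 0.207 (0.0327 to 1.34) in Mye_KO, from 4 UMIs in 4 cells, a log2 ratio of -3.30 (-6.02 to -0.55). Fibroblasts, the next type, held 0.608 and 0.465, and 8 of the other 10 types shared the direction. Spp1, which encodes osteopontin, followed at 2.80 and 0.346, from 45 and 2 UMIs. Pgd of the pentose phosphate pathway stood at 1.83 and 0.394, and Pde9a, a phosphodiesterase that cleaves cyclic GMP, at 2.02 and 0.497. Snhg9, a small nucleolar RNA host gene, stood at 2.33 and 0.694. The direction was shared by 9 of the other 10 types for Spp1, Pgd and Pde9a, and by all 10 for Snhg9. Of the 10 genes named for the largest ratios in either direction, 7 had an interval that included 0 under at least 1 alternative. For Iglc2, Slc25a39 and Spp1 the interval left out 0 in the 6, 5 and 4 alternatives that gave one. Thinning gave no interval for Slc25a39 or Spp1, and neither did cells at 10% hemoglobin or more for Spp1. Over summed UMIs the log2 ratio was 0.58 (-0.83 to 1.94) for Glg1, 1.25 (-0.02 to 2.56) for Cpsf6, -0.76 (-1.87 to 0.23) for Pgd and -0.88 (-1.99 to 0.10) for Pde9a. Of 80 ribosomal protein genes with enough UMIs, 1 was lower and 0 were higher, against 0.891 and 2.97% of all genes.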

How the data were processed

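Tumor cells were processed by the authors with the 10x Chromium 3′ v3.1 kit with CellPlex labels. Reads were aligned to mm10 with Cell Ranger 7.2.0, doublets were removed with Scrublet, and cells were normalised and annotated. The deposited values are natural log values: 1 was added to each gene's UMIs per 10000, within the cell, before the log was taken. Undoing the log and dividing by the smallest value of each cell gave whole UMIs for 32291 genes in 38883 cells. The study's filter kept cells with over 200 mRNAs and under 25% mitochondrial content, but some deposited cells lie beyond the latter, and all were kept here.

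Levels are means over cells of UMIs per 10000, with 95% gamma intervals for weighted Poisson counts. Ratios between libraries combine both intervals on the log scale. Shares have exact Clopper-Pearson intervals. A limit for 0 is 3 counts over the summed UMIs. With 1 library a group no test was made and no p-value is given. The genes named were the adult globins and Alas2, the up to 5 members of each list with the highest erythroid level and members at 0 UMIs, the 15 called genes with the largest fold, and 5 per direction between libraries; others were chosen after their values were seen. A few genes are not reported here and were left out of lists and counts of genes, but not of cell totals. The erythroid cells and the gene lists were chosen with earlier results of these data known. Alternatives changed the denominator, filters, fold, pseudocount (0.1) and depth (thinning to 500 UMIs, random seed 7). Intervals and calls were checked on simulated Poisson counts in which a gene had the same level in all cells of a library. The check therefore does not cover a spread between cells. Promoters came from RefSeq on GRCm38.p6 and gene positions from GENCODE M21. Software was Python 3.11.15, numpy 2.4.6, scipy 1.17.1, pandas 2.3.3 and Biopython 1.88.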

Additional observations from a re-analysis of the deposited data

How the results depend on the processing

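With 30 erythroid cells in Mye_KO and 1 library a group, neither the spread between mice nor a genotype effect can be given, and genes under a few UMIs cannot be ranked. Per UMI that was not hemoglobin 38 genes were highest in erythroid cells, including all 18, and at 4-fold 10. Over summed UMIs 19 were called, with 16 of the 18 among them. Of the 18, 17 remained in cells at 10% hemoglobin or more, and 17 with the pseudocount. Without epithelial cells the erythroid share was 1.22% in F/F and 0.345% in Mye_KO; counting only cells at 10% hemoglobin or more it was 0.438% in F/F and 0.102% in Mye_KO. The mean hemoglobin share in F/F and Mye_KO was 35.9 and 26.2% over summed UMIs, 34.9 and 20.8% in cells within the stated filter, and 39.9 and 32.0% in cells at 10% or more, the last chosen after seeing the data. That last cut is made on the share itself, which raises the mean by construction. Genes higher in Mye_KO numbered 29 per non-hemoglobin UMI and 32 with at least 50 UMIs, which tests fewer genes. Genes lower numbered 108 over summed UMIs, 76 per non-hemoglobin UMI, 10 within the stated filter and 11 after thinning. Of the 108, 8 were among the 18 lower genes named first, and after thinning 2 of the 18 were called. Of the 60 higher genes 37 were called over summed UMIs, 26 after thinning and 32 in cells at 10% hemoglobin or more, so that both lists depend on these choices. The cause was not tested. Ratios of 15 named genes kept their direction under all alternatives that gave a value, except Alas2, at 0.15 after thinning and 0.18 in cells at 10% hemoglobin or more, with intervals that include 0 throughout these 2 settings and the reported one. Of the 10 that are neither globins nor Alas2, the interval included 0 for 4 over summed UMIs, 5 after thinning, 5 in cells at 10% hemoglobin or more, 2 within the stated filter and 1 per non-hemoglobin UMI. After thinning, 4 of the 15 gave no value. No paired analysis was possible because each group has 1 library.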

Other observations

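Hemoglobin was also found in single cells of other annotated types. At 1% or more of UMIs stood 26 of 20206 other cells in F/F and 5 of 18541 in Mye_KO, and 7 and 2 of these stood at 10% or more. They held 83.0 and 89.995% of the hemoglobin UMIs outside erythroid cells. The highest were an epithelial cell at 30.5% and a T cell at 27.0%, both of F/F, and an epithelial cell of Mye_KO at 19.9%. These cells were deep, with medians of 10398 and 29613 UMIs, against 4804.5 and 7720 in the remaining cells of other types. They also carried the other erythroid messages: Alas2 was seen in 18 of 26 and 5 of 5 of them, against 0.927 and 0.9495% of the remaining cells, and a median of 4.5 and 6 of the 10 other erythroid genes had a UMI in them, against 1 and 1. Doublets had been removed by the authors, and whether these barcodes hold more than 1 cell was not tested.

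The level of 2 abundant genes that belong to no list, chosen after their values were seen, was higher in erythroid cells of Mye_KO. Gm42418 stood at 478 and 1047 UMIs per 10000, which placed it between the globins in level, and Camk1d at 31.7 and 65.5. Both were higher in Mye_KO in all of the other 10 types.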
